A study of Mus musculus with 6 samples.

Results

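The Sox family of transcription factors was examined in undifferentiated mouse embryonic stem cells (mESCs) of 2 genotypes, wild type (WT) and *Alkbh1-/-*, in which both copies of the gene for the AlkB-type dioxygenase ALKBH1 are disrupted. The members were the 10 Sox genes *Sox1*, *Sox2*, *Sox4*, *Sox7*, *Sox11*, *Sox12*, *Sox13*, *Sox15*, *Sox17* and *Sox21*, found in the deposited table by gene identifier, symbol or older symbol. They had 23 of its 33142 probe sets, out of 15357 genes that could be named. A probe set is a group of short oligonucleotides on the array. Its brightness reflects the abundance of 1 transcript or, for some probe sets, of several transcripts that share sequence.

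Each genotype was measured on 3 arrays at passage 8 and day 0, that is, before differentiation was induced. All cells had a C57BL/6 background, came from littermate embryos of heterozygous matings, and were cultured with leukemia inhibitory factor on irradiated mouse embryonic fibroblasts without further treatment. The labels do not say whether the arrays of a genotype came from separate lines or separate cultures. The authors' means were analysed here, over all arrays for every probe set and by genotype for 4243 probe sets (12.8% of the table). No value below therefore has a spread between arrays. Means alone allow no test, and none was made. The 4243 were listed by the authors because a comparison of the genotypes met a nominal p of 0.05, and their differences are therefore selected for size. The smallest was 0.37 on the log2 scale. For a probe set outside this list, the difference between the genotypes was not analysed here, and its size is not known to be small.

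Sox proteins bind DNA through a shared high-mobility-group box and are sorted into groups by its sequence. In mESCs, SOX2 of group B works with OCT4 to keep the cells pluripotent, and SOX1, of the same group, is an early marker of neuroectoderm. The group C factors SOX4, SOX11 and SOX12 act in neural and mesenchymal progenitors and promote neuronal differentiation, while SOX7 and SOX17 of group F belong to endoderm and to blood vessels.

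The targeted gene was looked at first as a check of the labels. At its brightest probe set, 1434660_at, *Alkbh1* had a mean of 9.57 log2 units in WT and 4.69 in *Alkbh1-/-* mESCs. A dimmer probe set, 1438681_at, had 6.91 and 5.11. The WT mean was thus the higher one at both, as the labels have it. The cells also differed on the Y chromosome. All 4 Y-linked genes on the list of sex chromosome genes had a much lower mean in *Alkbh1-/-* mESCs. *Eif2s3y*, a translation factor gene, had 9.55 in WT and 3.90 in *Alkbh1-/-* mESCs, the helicase gene *Ddx3y* had 8.68 and 3.82, and the demethylase gene *Kdm5d* had 6.95 and 2.91. On the X chromosome, 499 of the 932 probe sets in the table had genotype means, against 12.8% of all probe sets. Of these 499, 469 were higher in *Alkbh1-/-* mESCs, against 2184 of all 4243 probe sets with genotype means. *Xist*, the X-linked gene on the list, had a mean of 5.36 over all arrays and no genotype means. Genotype and these differences in X- and Y-linked signal cannot be told apart in any comparison below.

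The cells carried the transcripts that define mESCs. All 7 stem cell markers on the fixed list had a mean over all arrays above the median of the table, 6.31 log2 units, with *Tdgf1*, a Nodal co-receptor gene, brightest at 13.16. Fibroblast transcripts were bright as well. Of 12 fibroblast genes, 11 lay above the table's median, with the matrix gene *Fn1* brightest at 12.06.

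Among the members, *Sox2* had the brightest probe set. Its single probe set, 1416967_at, had a mean of 12.66 log2 units over both genotypes, at percentile 98.7 of all probe sets. The brightest probe sets of *Sox4* and *Sox11* followed, at 9.37 and 8.39. *Sox21*, a group B gene whose product opposes the activating members of its group, was at 7.73, and *Sox15*, the single gene of group G, was at 7.55. *Sox12* was at 7.52 and *Sox13*, of group D, at 6.73. Below the table's median lay *Sox1* at 5.70, *Sox7* at 5.35 and *Sox17* at 5.31. Oligonucleotides differ in how strongly they bind, so this order is one of brightness and not of transcript number.

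**Figure D1:**
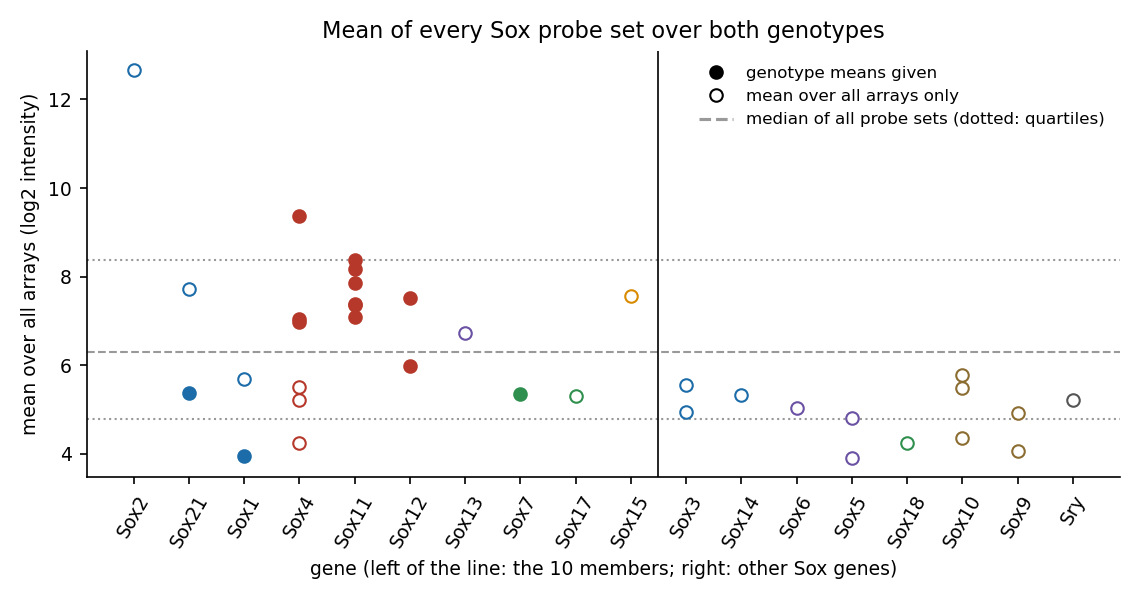
Mean log2 intensity over all arrays of each of the 36 Sox probe sets, by gene and colored by Sox group, with the 10 members left of the line. Filled points have genotype means and open points do not; *Sox2* stands at 12.66, and all probe sets of the other Sox genes lie below the table's median (dashed, 6.31).

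A further 8 Sox genes were found, with 13 probe sets: *Sox3*, *Sox5*, *Sox6*, *Sox9*, *Sox10*, *Sox14*, *Sox18* and *Sry*. All 13 had a mean below the table's median, from 3.91 for a probe set of *Sox5* to 5.78 for one of *Sox10*, a neural crest regulator. Genotype means were available for 0 of the 13. *Sox8* and *Sox30* were not analysed here.

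Genotype means were available for 14 of the 23 probe sets of the members, against 12.8% of the table. This share reflects the authors' selection and also the choice of members, which was made with earlier results of these data known. It is given as a description. The 14 belonged to 6 genes, and several measure the same transcript. In *Alkbh1-/-* mESCs, 11 of the 14 had a lower mean than in WT mESCs and 3 a higher one. The ratio of the means was past 1.5 for 10 of the 11 and for 2 of the 3, those of *Sox7* and *Sox21*. These 2 are dim, with WT means of 4.91 and 4.90 log2 units. Both lie between the 4.69 and 5.11 of *Alkbh1* in *Alkbh1-/-* mESCs, so the size of their ratios is uncertain. The ratio of the third, of *Sox1*, was not counted because its WT signal was too weak to give a level. No such limit was applied to the counts over all probe sets that follow. Over all 4243 probe sets with genotype means, 2059 were lower, and the ratio was past 1.5 for 1288 of these, 30.4% of the 4243. The other 2184 were higher, and the ratio was past 1.5 for 1393 of these, 32.8% of the 4243. The balance past this ratio turned without X- and Y-linked genes, with 1258 lower and 1005 higher against 1288 and 1393 with them. The 6 Sox genes with genotype means are all autosomal. The lower members were all of group C and the higher ones of groups B and F, as the plot of genotype means shows. For group B this rests on the dimmer probe sets of *Sox1* and *Sox21*. No group B gene had genotype means at its brightest probe set. Groups D and G had no genotype means.

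**Figure D2:**
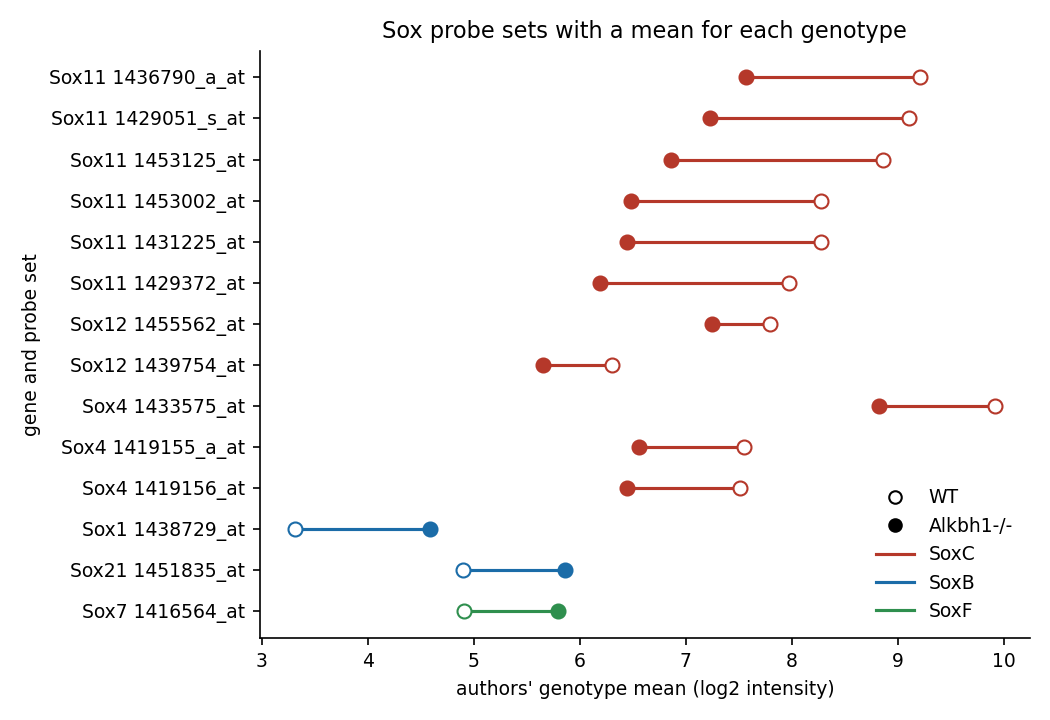
The authors' mean log2 intensity in WT (open) and *Alkbh1-/-* mESCs (filled) for the 14 Sox probe sets with genotype means, by gene and probe set. All 11 group C probe sets lie lower in *Alkbh1-/-* mESCs, and the 3 probe sets of groups B and F lie higher and are dimmer.

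Of the group C genes, *Sox11*, which acts in neurons that have just left the cell cycle, had the largest differences. Its brightest probe set, 1436790_a_at, had a mean of 9.21 log2 units in WT and 7.57 in *Alkbh1-/-* mESCs, a difference of −1.64 (*Alkbh1-/-* minus WT). The WT intensity was 3.12 times that in *Alkbh1-/-* mESCs. The probe set 1429051_s_at had 9.10 and 7.22, where the WT intensity was 3.68 times that in *Alkbh1-/-* mESCs. The difference was largest at 1453125_at, with 8.86 and 6.86. The other 3 were dimmer. Here 1453002_at had 8.28 and 6.48, 1431225_at had 8.28 and 6.45, and 1429372_at had 7.98 and 6.19. All 6 probe sets of *Sox11* were thus lower, with differences from −2.00 to −1.64 and a median of −1.81. At the brightest, 65 of the 4243 probe sets with genotype means had a lower difference. *Sox11* lies on chromosome 12, as *Alkbh1* does, and whether this bears on the difference was not tested.

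*Sox4*, a group C gene active in neural progenitors and in many embryonic tissues, has 6 probe sets. The brightest, 1433575_at, had a mean of 9.91 log2 units in WT and 8.82 in *Alkbh1-/-* mESCs, a difference of −1.10. The WT intensity was 2.14 times that in *Alkbh1-/-* mESCs. The next, 1419155_a_at, had 7.55 and 6.56, a difference of −0.99, and 1419156_at had 7.52 and 6.44, a difference of −1.07. These 3 differences spanned 0.10 log2 units, and the mean brightness of the probe sets spanned 2.39 log2 units. The other 3 probe sets, 1455867_at, 1419157_at and 1449370_at, were dim, with means of 5.50, 5.21 and 4.26 over all arrays. They had no genotype means, so whether they differ in the same way was not tested.

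*Sox12*, the third gene of group C, had smaller differences. Its brighter probe set, 1455562_at, had a mean of 7.80 log2 units in WT and 7.24 in *Alkbh1-/-* mESCs, a difference of −0.56. This corresponds to a WT intensity 1.47 times that in *Alkbh1-/-* mESCs and is the single listed Sox difference under a ratio of 1.5. The other, 1439754_at, had 6.30 and 5.65, a difference of −0.65. Both lay near the median difference of the 2059 lower probe sets with genotype means, −0.66. Over group C as a whole, 11 of 14 probe sets had genotype means and all 11 were lower, 6 of them of *Sox11*. By gene, at its brightest probe set, the differences were −1.64 for *Sox11*, −1.10 for *Sox4* and −0.56 for *Sox12*. The RNA came from whole cultures, so fewer cells with a transcript and less of it per cell cannot be told apart.

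The promoters of the group C genes are shown because these 3 members were lower together. Promoter sequences from RefSeq, on assembly GRCm38.p6, were used for 8 of the 10 members. The 250 bases before the start site are printed 5′ to 3′ on the strand of the gene, with matches to the motifs searched in capitals. All 3 genes lie on the minus strand, *Sox4* at chr13:28953700-28953949, *Sox11* at chr12:27342719-27342968 and *Sox12* at chr2:152398047-152398296.
Sox4: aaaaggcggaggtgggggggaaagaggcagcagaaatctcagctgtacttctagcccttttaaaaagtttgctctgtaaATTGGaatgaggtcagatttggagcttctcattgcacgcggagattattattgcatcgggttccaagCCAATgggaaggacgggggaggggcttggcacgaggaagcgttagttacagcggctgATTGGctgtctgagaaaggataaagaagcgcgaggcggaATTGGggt
Sox11: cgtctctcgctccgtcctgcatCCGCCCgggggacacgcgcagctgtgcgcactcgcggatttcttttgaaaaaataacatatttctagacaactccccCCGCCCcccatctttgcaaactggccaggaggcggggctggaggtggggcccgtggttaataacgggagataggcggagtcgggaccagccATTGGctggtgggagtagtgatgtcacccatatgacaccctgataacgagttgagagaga
Sox12: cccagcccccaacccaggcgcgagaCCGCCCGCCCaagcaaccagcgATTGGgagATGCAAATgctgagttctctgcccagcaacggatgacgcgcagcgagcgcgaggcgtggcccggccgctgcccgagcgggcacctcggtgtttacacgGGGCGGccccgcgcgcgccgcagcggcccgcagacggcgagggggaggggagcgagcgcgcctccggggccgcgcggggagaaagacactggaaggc

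The motifs searched on both strands were the GC box (GGGCGG), the CCAAT box (CCAAT), the TATA box (TATAAA), 2 forms of the Sox site (ACAAAG and ACAATG) and the octamer bound by OCT4 (ATGCAAAT). A CCAAT box was found in all 3 group C promoters, with 4 matches for *Sox4* and 1 each for *Sox11* and *Sox12*. It occurred in 5 of the 8 promoters of members and in 33.8% of all 32851 promoters of the same length. GC boxes numbered 2 for *Sox11*, 3 for *Sox12*, of which 2 overlap, and 0 for *Sox4*, and 32.7% of all promoters hold one. The octamer was found in the *Sox12* promoter and in 0 of the other 7, against 1.60% of all promoters. A TATA box was found in 0 of the 8, against 12.4% of all promoters. The ACAAAG form of the Sox site was found in the promoter of *Sox2* and in 0 of the other 7 (16.5% of all promoters), and the ACAATG form in 0 of the 8 (10.7% of all promoters). The content of G and C was 50.8% for *Sox4*, 58.0% for *Sox11* and 74.4% for *Sox12*, with a median of 52.4% over all promoters. A match describes letters in this window and not a bound site.

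Group B gave a mixed picture. For *Sox2*, no genotype means were available. *Sox1* has 2 probe sets. The brighter, 1422205_at, had a mean of 5.70 log2 units over all arrays and no genotype means. The dimmer, 1438729_at, deposited under an older symbol of *Sox1*, had 3.31 in WT and 4.58 in *Alkbh1-/-* mESCs. Its WT mean lies within the 2.67 to 4.20 that 8 Y-linked probe sets gave in *Alkbh1-/-* mESCs, and close to the lowest mean of any probe set over all arrays, 3.22. A WT level cannot be read from it, and the size of its difference, drawn in the plots as computed, cannot be relied on. For *Sox21*, the dimmer probe set, 1451835_at, had 4.90 in WT and 5.86 in *Alkbh1-/-* mESCs, a difference of 0.96, whereas the brighter one, 1437059_at (7.73 over all arrays), had no genotype means. The WT mean of 1451835_at is weak as well, so the size of its difference is uncertain. For *Sox1* and *Sox21*, the higher mean in *Alkbh1-/-* mESCs thus rests on the weaker of 2 probe sets.

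In group F, *Sox7*, a gene of primitive endoderm, has a single probe set, 1416564_at. Its mean was 4.91 log2 units in WT and 5.79 in *Alkbh1-/-* mESCs, a difference of 0.88, with an *Alkbh1-/-* intensity 1.85 times that of WT. The WT mean is weak, so the size of this difference is uncertain. *Sox17*, a regulator of definitive endoderm, had a mean of 5.31 over all arrays at 1421657_a_at, close to that of *Sox7*, and no genotype means. Both are dim, and group F thus has genotype means for 1 of its 2 members. *Sox13* (1450191_a_at), known from T-cell development, and *Sox15* (1452017_at), known from muscle regeneration, had no genotype means either.

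More than 1 probe set with genotype means was available for 3 members, *Sox4*, *Sox11* and *Sox12*, and within each of these the differences had the same sign. This was so for nearly every gene, since 708 of the 711 genes with at least 2 such probe sets had differences of 1 sign, a count added after the values were seen. The other members had 1 such probe set or none, so their probe sets could not be compared. In *Sox1*, *Sox4* and *Sox21*, some probe sets had genotype means and others did not. With all probe sets split by mean brightness into 4 bins of equal size, a split added after the values were seen, genotype means were available for 6.72% of the dimmest bin and for 14.1%, 18.8% and 11.6% of the following bins. The members' probe sets with genotype means numbered 1 of 2, 3 of 7, 8 of 11 and 2 of 3 in the same bins. The 8 all belong to *Sox4*, *Sox11* and *Sox12*, and several measure the same transcript. These counts are a description, since the members were chosen with earlier results of these data known.

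**Figure D3:**
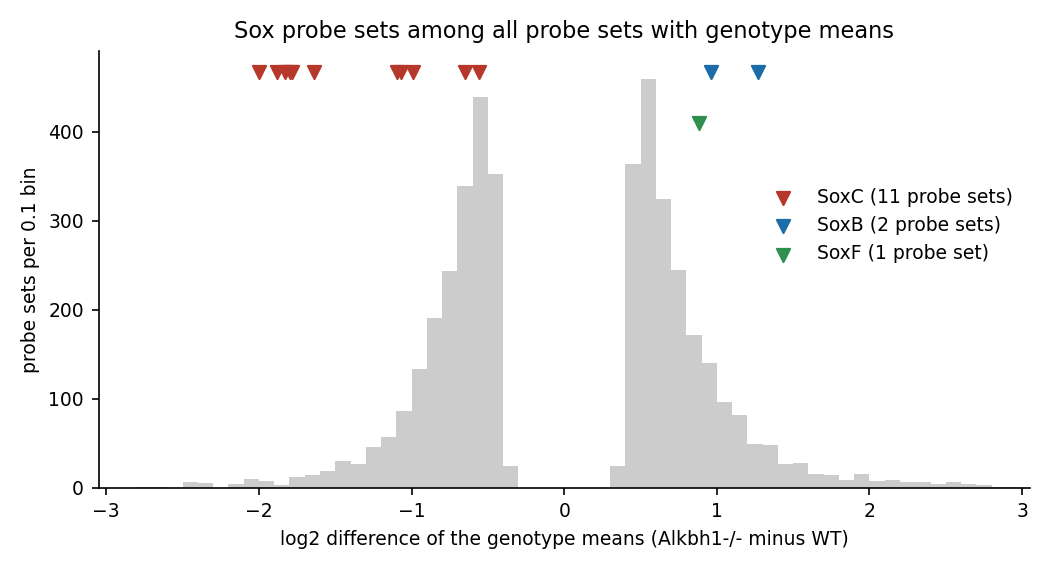
Number of probe sets per 0.1 bin of the log2 difference of the genotype means (*Alkbh1-/-* minus WT) for the probe sets with genotype means, 32 of which lie beyond 3 in size and are not drawn; triangles mark the Sox probe sets. The gap around 0 comes from the authors' selection; the 6 *Sox11* probe sets form the leftmost cluster, from −2.00 to −1.64.

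The gene lists below are read against the whole table, in which 12.8% of probe sets had genotype means, 2059 of these 4243 lower and 2184 higher in *Alkbh1-/-* mESCs. Genes that work with SOX2 were examined as a fixed list of 12 pluripotency genes, all in the table. At the brightest probe set, genotype means were available for 5, of which 4 were higher in *Alkbh1-/-* mESCs and 1 lower, with a median difference of 0.55. *Nanog*, which encodes a core pluripotency factor, had 11.91 log2 units in WT and 13.01 in *Alkbh1-/-* mESCs, and *Klf4*, a Krüppel-like factor gene, had 12.18 and 12.85 at 1417394_at. *Esrrb*, which encodes an orphan nuclear receptor, had 10.90 and 11.45 at 1436926_at. *Utf1*, a known target of SOX2 and OCT4, was the lower one, with 10.57 and 10.09 at 1416899_at. *Pou5f1*, which encodes OCT4, had a mean of 12.64 over all arrays and, as for *Sox2*, no genotype means.

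Neural genes were split into progenitor genes, which surround the group B factors, and a list of neuronal and proliferation genes, some of which group C factors activate. Of 12 progenitor genes, 11 were in the table and 2 had genotype means at the brightest probe set. Both were lower. By probe set, 3 of 17 had genotype means, against 12.8% of the table, and no direction of the list can be read from so few. *Neurod1*, a proneural factor gene, had 8.12 in WT and 6.71 in *Alkbh1-/-* mESCs at 1426413_at, and the Wnt modulator gene *Sfrp2* had 6.89 and 5.97. Of 10 neuronal and proliferation genes, 8 were in the table and 3 had genotype means at the brightest probe set. The microtubule gene *Mapt* was higher in *Alkbh1-/-* mESCs, with 7.77 in WT and 9.27 in *Alkbh1-/-* mESCs at 1424719_a_at, and the adhesion gene *Ncam1* was also higher, with 7.36 and 7.99 at 1426864_a_at. *Map2* was lower, with 6.73 and 6.18. The tubulin gene *Tubb3* and the proliferation gene *Tead2*, known targets of group C factors, had means of 8.04 and 9.11 over all arrays and no genotype means. Over all probe sets of this list, 10 had genotype means. The 8 higher ones were 4 of *Mapt* and 4 of *Ncam1*. The 2 lower ones belonged to *Map2* and to *Elavl4*, which encodes a neuronal RNA-binding protein, so that 2 genes were higher and 2 lower. For *Elavl4* this rests on its dimmest probe set, 1452894_at, with 4.54 in WT and 3.95 in *Alkbh1-/-* mESCs. The lower of these means is within the 2.67 to 4.20 of Y-linked probe sets in *Alkbh1-/-* mESCs, so the size of this difference cannot be relied on. The same holds for 1439556_at of *Ncam1*, with 3.52 in WT.

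For group F, 15 endoderm and 7 endothelial genes were listed. All 15 endoderm genes were in the table, and 2 had genotype means at the brightest probe set. Both were lower. By probe set, 3 of 29 had genotype means, against 12.8% of the table. The endocytic adaptor gene *Dab2* had 6.32 in WT and 5.40 in *Alkbh1-/-* mESCs, and the laminin gene *Lamb1* had 10.76 and 9.86 at 1424114_s_at. The endoderm regulators *Gata4*, *Gata6* and *Foxa2* were dim, with means of 4.47, 4.45 and 3.92 over all arrays, and had no genotype means. Of the endothelial genes, 5 were in the table and 1 had genotype means, the adhesion gene *Pecam1*, with 6.93 and 7.51. These single genes give no direction for either list.

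Feeder cells could contribute to the RNA, and SoxC genes are known to be active in mesenchymal cells. Of the 12 fibroblast genes, 4 had genotype means at the brightest probe set, all 4 lower in *Alkbh1-/-* mESCs, with a median difference of −0.97. The actin-binding gene *Tagln* had 11.00 in WT and 9.90 in *Alkbh1-/-* mESCs, and the collagen genes *Col1a1* and *Col3a1* had 9.04 and 7.98, and 10.97 and 10.09, at their brightest probe sets. Summed over the 4, the linear intensity was 4704 in WT and 2379 in *Alkbh1-/-* mESCs. The smallest of the 4 differences was −0.52, for the surface protein gene *Thy1*. The other 8 fibroblast genes, among them the bright *Fn1*, *Col1a2* (11.82 over all arrays) and *Acta2* (11.18), had no genotype means at their brightest probe set. Over all 18 fibroblast probe sets, 7 had genotype means and all 7 were lower. They belonged to 5 genes, *Col1a2* among them, with 9.99 and 8.93 at 1423110_at, and the other 7 genes had none. The part of fibroblast transcripts in the group C differences was not tested.

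**Figure D4:**
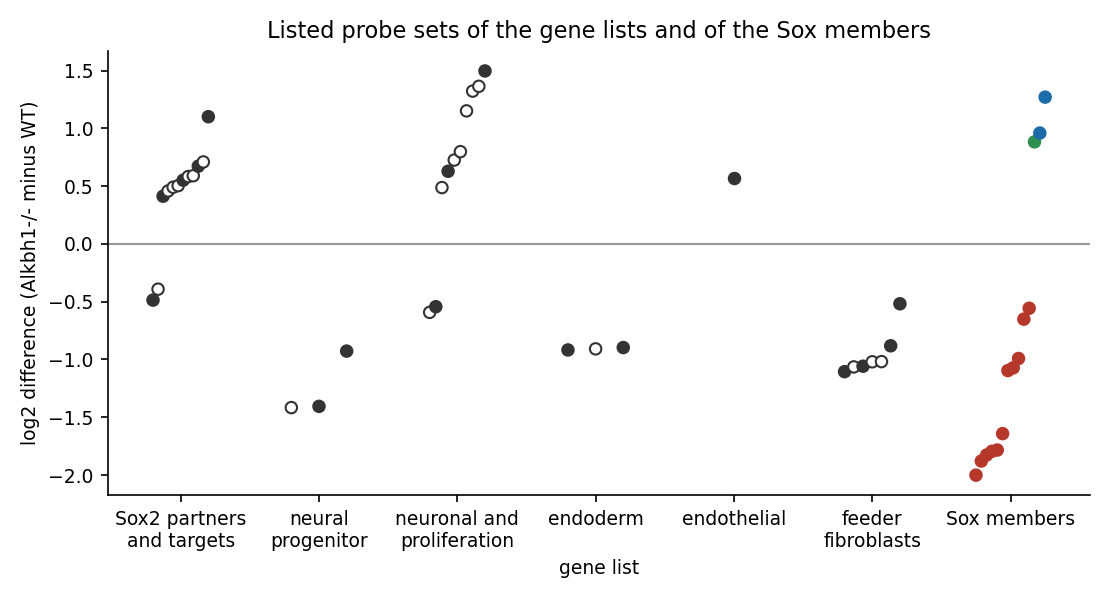
Log2 difference of the genotype means (*Alkbh1-/-* minus WT) of each probe set with genotype means, by gene list, with the brightest probe set of a gene filled and others open; all Sox probe sets are filled and colored by group (red C, blue B, green F). The fibroblast, endoderm and progenitor probe sets drawn lie below 0, and the 8 of the neuronal and proliferation list above it belong to *Mapt* and *Ncam1*.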

How the data were processed

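Gene expression in mESCs was measured with Affymetrix mouse expression arrays, 3 per genotype. The authors normalized the arrays together with robust microarray analysis and deposited, for 33142 probe sets, the mean log2 value over all arrays. For 4326 entries that met a nominal p of 0.05 in a class comparison by a service company, they also deposited a geometric mean intensity, on the linear scale, for either genotype. Differences, folds, statistics and p-values of the authors' own comparisons stand in both tables and were not used. The filter behind the larger table is not given in the sources used here. The class column named C1 was read as WT from the text supplied with the tables, which calls that name an error.

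The identifiers of the entries do not belong to their values: 8 of 4243 stood beside the same probe set. Entries were therefore joined to the probe set whose mean over all arrays equaled the mean of the log2 genotype means within 5e-07. This gave 4243 joined entries, while 65 fitted no probe set and 18 fitted several. The join was tested on simulated data. The difference is the log2 mean of *Alkbh1-/-* minus that of WT. The design set for this work foresaw no test, because means without single arrays allow none, and the number of arrays limits the precision.

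Probe sets were named by gene identifier, accession, symbol or older symbol through RefSeq genes of GRCm38.p6 (28205 named, 85.1%). A gene is given by its brightest probe set, with others beside it. The genes named are all Sox genes found, *Alkbh1*, and from each list the 3 with the largest differences; other list genes were named for their role, their brightness or to account for a count after their values were seen. The members and lists were chosen with earlier results of these data known. Alternatives were the mean of a gene's probe sets, probe sets without shared-transcript suffixes, a wider join, a ratio of 2, and leaving out X- and Y-linked genes. Python 3.11.15 with pandas 2.3.3 and matplotlib 3.10.9 was used.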

Additional observations from a re-analysis of the deposited data

How the results depend on the processing

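The median level of the members over all arrays, 7.54 log2 units, was 6.64 when all probe sets of a gene were averaged and 7.64 with only probe sets without a suffix for shared transcripts. At the brightest probe set, 4 members had a genotype difference, with a median of −0.83. With the mean over all probe sets with genotype means, 6 members had one and the median was 0.14, a change of sign that comes from the dimmer probe sets of *Sox1*, with a very weak WT signal, and *Sox21* entering; the differences of *Sox4*, *Sox7*, *Sox11* and *Sox12* kept their sign. At a ratio of 2 in place of 1.5, 338 probe sets were lower and 456 higher, against 1288 and 1393. Without X- and Y-linked genes, 1258 were lower and 1005 higher, and with the wider join 1239 and 1329; the Sox probe sets with genotype means numbered 14 in the wider join too. No paired analysis was possible because the tables hold means and no single arrays. For the same reason, leaving out single arrays was not run. Dim probe sets, such as those of *Sox1*, *Sox7* and *Sox17*, limit what the array can show.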

Other observations

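All probe sets of *Sox11* were lower by more than 1 log2 unit, a pattern looked for in other genes after its values were seen. The counts that follow are therefore a description and not a test. In the table, 586 genes had at least 5 probe sets. For 17 of them, every probe set had genotype means, and in all 17 the differences had 1 direction. In 6 of the 17, all probe sets were lower in *Alkbh1-/-* mESCs. *Sox11* was the 1 gene among the 586 whose probe sets all had genotype means and were all lower by more than 1 log2 unit. The next was the DNA methyltransferase gene *Dnmt3a*, with differences from −1.75 to −0.96 over 5 probe sets. Among genes with all probe sets higher were *Jam2*, an adhesion gene, from 1.05 to 2.22, and the Wnt antagonist gene *Sfrp1*, from 1.29 to 1.98.

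Of the 499 X-linked probe sets with genotype means, 469 were higher in *Alkbh1-/-* mESCs, against 2184 of all 4243. None of the 6 Sox genes with genotype means is X-linked, and *Sox3*, the Sox gene on the X chromosome, had no genotype means.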
